A study of Homo sapiens with 21 samples.

Results

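Aminoacyl-tRNA synthetases are the enzymes that join each amino acid to its transfer RNA, and 36 of them, together with 3 scaffold proteins of the multisynthetase complex, were followed in HK-2 cells exposed to cyclosporine A. These 39 genes were taken by name from the 23368 features of the mRNA count table; the naming rule holds no measured value, but it was written with earlier results of these data known. There were 20 synthetases of the cytosol, named without the suffix 2, 16 mitochondrial synthetases, named with it, and the scaffold genes AIMP1, AIMP2 and EEF1E1. All 39 were present in the table and all 39 passed the filter on low counts.

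HK-2 is an immortalised cell line of human kidney proximal tubule epithelium, a single line, so the libraries stand for 1 genetic background in culture. Cyclosporine A (CsA) is a calcineurin inhibitor used against transplant rejection, and the series bears on its toxicity to the kidney. Polyadenylated RNA was sequenced from 4 libraries of cells given 5 µg/mL CsA for 48 h and from 4 libraries of cells given the vehicle, 0.1% ethanol, for the same time. AGO2 PAR-CLIP, which maps the RNA bound by the Argonaute 2 protein of the microRNA machinery, was made from 2 CsA and 2 vehicle libraries after 24 h, with 100 µM 4-thiouridine in the medium and crosslinking at 365 nm, and 1 further library, of unlabelled treatment, was pulled down with a pan-Argonaute antibody. Nothing in the labels says that the libraries of a group are separate cultures, and the p-values cover only library-to-library spread, possibly technical.

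In the cytosol, each synthetase charges the transfer RNAs that feed the ribosome. Synthetases fall into a pair of unrelated catalytic folds, class I and class II, and in animals several of them sit with AIMP1, AIMP2 and EEF1E1 in the multisynthetase complex. Mitochondria have their own synthetases, encoded in the nucleus, which charge the transfer RNAs of the mitochondrial genome; GARS and KARS are exceptions, since each gene encodes both the cytosolic and the mitochondrial enzyme. When amino acids run short or unfolded protein builds up in the endoplasmic reticulum, phosphorylation of eIF2 raises translation of the transcription factor ATF4, which binds amino acid response elements and is known to induce many cytosolic synthetase genes.

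ATF4 with a C/EBP partner binds a core written TGATGNAA. Windows from 250 bases before to 50 bases after each annotated start of a gene were therefore searched for that core on both strands. RefSeq windows (GRCh38.p14) were found for 33 of the 39 genes; DARS, LARS, VARS, YARS, AARS2 and VARS2 had none in the table used. The core stood in 8 of these 33 genes (24.2%) and in 1217 of 27305 genes with windows (4.46%). It was in 7 of 16 cytosolic genes (43.8%), in 1 of 14 mitochondrial genes (7.14%), the YARS2 gene, and in 0 of 3 scaffold genes. A match describes letters in a window and does not show binding.

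The stretches below show where those letters fall in 6 of the cytosolic genes and in YARS2, each with up to 20 bases on either side, 5′ to 3′ in the direction of the gene, with the matched core in capitals.
IARS: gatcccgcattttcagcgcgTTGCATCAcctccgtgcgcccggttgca
GARS: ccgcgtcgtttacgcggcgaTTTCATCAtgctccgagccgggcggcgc
NARS: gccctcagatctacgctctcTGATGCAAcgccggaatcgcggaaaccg
MARS: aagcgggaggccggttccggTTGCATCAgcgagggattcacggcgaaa
TARS: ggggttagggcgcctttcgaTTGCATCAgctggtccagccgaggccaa
CARS: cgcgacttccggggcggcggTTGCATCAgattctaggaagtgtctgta
YARS2: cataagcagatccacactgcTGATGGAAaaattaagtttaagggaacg
In IARS (chr9:92293683-92293730, minus strand), MARS (chr12:57488044-57488091, plus strand), TARS (chr5:33440947-33440994, plus strand) and CARS (chr11:3057398-3057445, minus strand) the letters were the same, TTGCATCA, which is TGATGCAA read on the other strand. NARS (chr18:57621795-57621842, minus strand) held TGATGCAA on the strand of the gene, GARS (chr7:30594825-30594872, plus strand) held TTTCATCA, and YARS2 (chr12:32756067-32756114, minus strand) held TGATGGAA. Counted from the start site at 0, the leftmost core base lay at -13 in IARS, -4 in MARS, -2 in CARS, 2 in TARS, 14 in NARS and -33 in GARS. All were within 33 bases of the annotated start of their window. CARS, TARS and GARS each had another window, from another annotated start, that did not hold the core. It lay at -197 in YARS2 and at -187 in AARS, the cytosolic gene with the core whose stretch is not shown.

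The whole window of IARS (chr9:92293648-92293947, minus strand) is shown because this gene, which charges isoleucine transfer RNAs, was among the 6 cytosolic genes with the largest rises and carries the core next to its start.
IARS: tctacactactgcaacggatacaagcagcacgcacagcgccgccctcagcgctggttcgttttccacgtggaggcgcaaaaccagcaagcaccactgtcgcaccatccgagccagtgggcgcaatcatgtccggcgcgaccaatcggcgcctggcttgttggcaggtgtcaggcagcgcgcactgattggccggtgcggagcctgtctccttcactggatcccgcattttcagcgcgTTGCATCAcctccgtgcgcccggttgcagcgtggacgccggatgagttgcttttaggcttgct

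In the mRNA libraries the summed counts of the cytosolic and the mitochondrial class, set by gene name, differed in direction. GARS and KARS, which encode the enzymes of both compartments, are counted as cytosolic. Summed normalised counts of the 20 cytosolic genes were 5091 ± 78.1 CPM with CsA and 2900.0 ± 111 CPM with vehicle (SD, n = 4 each), a ratio of 1.76, where CPM is the count scaled to library size after TMM normalisation. The lowest CsA library had 5010 CPM and the highest vehicle library 3048 CPM, so the groups did not overlap. The 16 mitochondrial genes summed to 666 ± 21.5 CPM with CsA and 806 ± 14.9 CPM with vehicle, a ratio of 0.827, again with no overlap, from 643 to 693 CPM with CsA and from 793 to 826 CPM with vehicle. IARS2 accounted for most of that difference: the other 15 genes summed to 453 ± 9.30 CPM with CsA and 500.1 ± 15.7 CPM with vehicle, a ratio of 0.905, still with no overlap. The 3 scaffold genes summed to 86.0 ± 4.23 CPM with CsA and 73.9 ± 5.18 CPM with vehicle. In bulk RNA, a change per cell and a change in the make-up of the cells cannot be told apart.

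Of the 39 genes, 22 rose and 9 fell with CsA at an adjusted p under 0.05 in edgeR's quasi-likelihood test over 12855 genes, and 8 did not pass. In the same test 33.3% of all genes rose and 33.5% fell, 66.9% in either direction, so a call alone says little here. The share that rose was 56.4% of the 39 genes, 85.0% of the cytosolic genes (17 of 20) and 18.8% of the mitochondrial genes (3 of 16); the share that fell was 23.1%, 5.00% (1 of 20) and 50% (8 of 16) of the same groups. The cytosolic share of rises was above the background share and the mitochondrial share of falls was above it by less. Over the alternatives 16 to 18 of the 20 cytosolic genes rose and 6 to 10 of the 16 mitochondrial genes fell. In 18 of the 39 genes every CsA library was above every vehicle library, against 29.0% of all genes, and in 7 every CsA library was below, against 28.9%. Every CsA library was above in 80% of the cytosolic genes and below in 37.5% of the mitochondrial genes (6 of 16). The median log2 fold change, CsA over vehicle, was 0.64 for the cytosolic, -0.19 for the mitochondrial and -0.0022 for all tested genes. The span from the 5th to the 95th percentile of all genes ran from -1.23 to 0.95: 6 cytosolic genes exceeded its upper end, and every mitochondrial gene lay inside it.

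**Figure D1:**
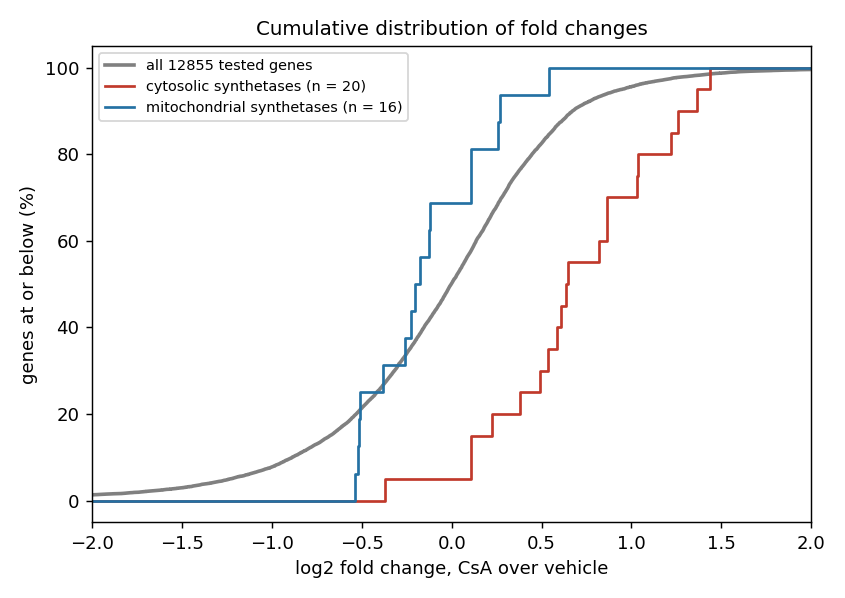
Cumulative share of genes (percent, vertical axis) at or below each log2 fold change, CsA over vehicle (horizontal axis), for the 20 cytosolic synthetases in red, the 16 mitochondrial ones in blue and all 12855 tested genes in grey. The cytosolic curve lies to the right of the grey one, with a median of 0.64, and the mitochondrial curve is steep around its median of -0.19.

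Total counts were 3965431 to 5001669 per CsA library and 4289120 to 7041604 per vehicle library, and single genes of the 39 had from 20 to 3686 counts with CsA and from 20 to 2669 with vehicle. The 39 genes took 0.568 to 0.582% of counts with CsA and 0.366 to 0.404% with vehicle. The cell line kept PAX8, KRT8, KRT18 and KRT19 transcripts, but SLC22A6 and SLC22A8, organic anion carriers of the proximal tubule, were at 0 in all 8 libraries and AQP1, LRP2 and CUBN at 6 counts or fewer, so these libraries lack many defining transcripts of the tissue. The summed level of 17 epithelial and proximal tubule markers was 2287 to 2415 CPM with CsA and 2459 to 2564 CPM with vehicle, but of the 10 tested 5 rose and 4 fell, from CDH6 at a log2 fold change of -2.98 to MME at 1.73. Of 13 markers of immune, endothelial, stromal and podocyte cells, 5 were at 0 in every library, PTPRC, CD3E, PECAM1 and COL1A2 among them, and the sum was 22.5 to 31.2 CPM with CsA and 27.2 to 33.7 CPM with vehicle. The 3 of them that were tested all changed, CSF1R by 1.60 ± 0.16, COL1A1 by -1.52 ± 0.17 and CD14 by -2.64 ± 0.31 (log2, SE), so the similar sums cover opposite changes. The part of either marker list in the results was not tested.

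AARS, the alanyl-tRNA synthetase, showed the largest change of the 39 genes. It had 565, 551, 532 and 529 CPM in the 4 CsA libraries, against 197, 199, 202 and 208 CPM in the 4 vehicle libraries. All CsA libraries lay far above all vehicle libraries, and its log2 fold change was 1.44 ± 0.06 (SE, adjusted p = 6.42e-30), a fold of 2.71.

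SARS, which charges the serine transfer RNAs and also the selenocysteine transfer RNA before its serine is converted, was close behind. It had 329, 346, 328 and 331 CPM with CsA, against 127, 125, 132 and 134 CPM with vehicle. The groups did not overlap and the log2 fold change was 1.37 ± 0.06 (SE, adjusted p = 2.70e-28). GARS, for glycine in both compartments, had 407, 386, 372 and 376 CPM with CsA, against 159.8, 159.9, 149.7 and 174 CPM with vehicle. Its groups also stood apart, with a log2 fold change of 1.26 ± 0.06 (SE, adjusted p = 2.03e-26).

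YARS, for tyrosine, had 358, 355, 347 and 353 CPM with CsA, against 144, 157, 158 and 149 CPM with vehicle. The 4 CsA libraries lay within a narrow span, all above the vehicle libraries, and the log2 fold change was 1.22 ± 0.06 (SE, adjusted p = 3.17e-26). YARS overlaps S100PBP in the RefSeq annotation, and whether counting used the strand is not stated. IARS, a class I enzyme of the multisynthetase complex, had 758, 811, 794 and 791 CPM with CsA, against 379, 377, 376 and 409 CPM with vehicle. Its log2 fold change was 1.03 ± 0.06 (SE, adjusted p = 1.15e-23), with no overlap; the short RNA genes MIR3651 and SNORA84 lie within it.

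FARSB encodes the beta subunit of cytosolic phenylalanyl-tRNA synthetase and FARSA the alpha subunit, which work as a tetramer of both. FARSB had 73.6, 78.2, 77.5 and 75.7 CPM with CsA, against 35.0, 39.8, 33.5 and 41.5 CPM with vehicle, all CsA libraries above, and its log2 fold change was 1.03 ± 0.08 (SE, adjusted p = 2.58e-17). FARSA had 66.4, 66.7, 57.3 and 60.6 CPM with CsA, against 47.4, 54.7, 53.8 and 60.7 CPM with vehicle. The FARSA groups overlapped and its log2 fold change was 0.23 ± 0.08 (SE, adjusted p = 0.0108), a call that was lost without vehicle replicate 1 and with total counts or upper quartile scaling. The subunits of 1 enzyme thus rose by folds of 2.04 and 1.17; the difference between them was not tested.

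The other cytosolic genes that rose were LARS (0.87, for leucine), WARS (0.86, for tryptophan), EPRS (0.82, a bifunctional enzyme for glutamate and proline), NARS (0.65, for asparagine), MARS (0.64, for methionine), KARS (0.61, for lysine), TARS (0.59, for threonine), CARS (0.54, for cysteine), RARS (0.49, for arginine) and VARS (0.38, for valine), all in log2 fold change. In all 10 every CsA library was above every vehicle library, down to VARS, from 234 CPM upward with CsA and up to 207 CPM with vehicle. MARS overlaps DDIT3, which rose by 2.11 ± 0.07 (log2, SE), and ARHGAP9, so a share of its reads could belong to DDIT3; how large a share was not tested.

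QARS, the glutaminyl-tRNA synthetase of the multisynthetase complex, was the 1 cytosolic gene that fell. It had 179.6, 179, 169 and 175 CPM with CsA, against 228, 222, 228 and 232 CPM with vehicle. Every CsA library was below every vehicle library and the log2 fold change was -0.37 ± 0.06 (SE, adjusted p = 1.23e-07). DARS, for aspartate, had 117, 110.2, 102 and 103 CPM with CsA, against 91.7, 97.7, 104 and 111 CPM with vehicle. Its groups overlapped and it did not pass the test, at 0.11 ± 0.07 (SE, adjusted p = 0.168); it passed without vehicle replicate 4, at an adjusted p of 0.0459 in edgeR. HARS, for histidine, had 42.8, 43.0, 32.7 and 33.8 CPM with CsA, against 33.3, 35.2, 36.0 and 38.2 CPM with vehicle. The CsA libraries spread from 32.7 to 43.0 CPM around the vehicle range, and the log2 fold change was 0.11 ± 0.09 (SE, adjusted p = 0.317). HARS and HARS2 are similar neighbouring genes that could share reads, so both values are uncertain.

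**Figure D2:**
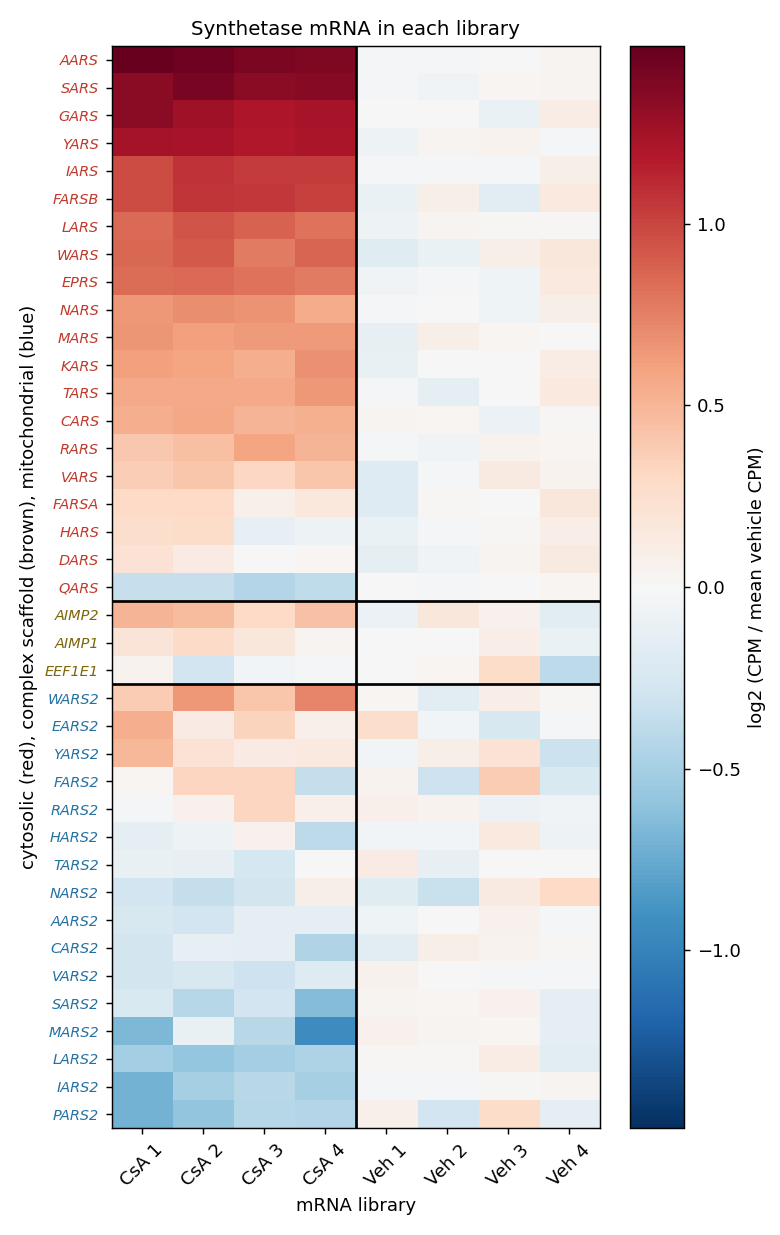
Level of each of the 39 genes in each library, as log2 of its CPM over the gene's mean vehicle CPM (red higher, blue lower), with the 4 CsA libraries left of the 4 vehicle libraries and the genes ordered by class. Cytosolic rows from AARS to VARS are red in all 4 CsA libraries, QARS is blue in all 4, and 8 mitochondrial genes at the foot of the map, from AARS2 to PARS2, are mostly blue there.

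The multisynthetase complex holds 8 of these synthetases, EPRS, IARS, LARS, MARS, QARS, RARS, KARS and DARS, with the 3 scaffold proteins. Of its 11 genes 8 rose (72.7%), 1 fell (9.09%) and 2 did not pass, against 33.3% of all genes that rose and 33.5% that fell. Over the alternatives 7 to 8 of the 11 rose. The summed level of the 11 genes was 2431 ± 29.5 CPM with CsA and 1560.2 ± 51.9 CPM with vehicle (SD, n = 4 each). The 8 synthetases had a median log2 fold change of 0.62, with 6 higher and 1 lower, and the 12 cytosolic synthetases outside the complex a median of 0.75, with 11 higher and 0 lower; the difference was not tested. By catalytic fold the medians were 0.64 for the 9 cytosolic class I genes and 0.63 for the 10 class II genes, EPRS aside as it holds both folds.

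The scaffold genes had log2 fold changes from -0.07 to 0.43. AIMP2, which is also known as a regulator of p53 and of MYC, had 23.2, 22.7, 20.2 and 22.2 CPM with CsA, against 15.5, 18.4, 17.1 and 14.7 CPM with vehicle. All CsA libraries were above, and the log2 fold change was 0.43 ± 0.12 (SE, adjusted p = 9.60e-04). AIMP1, which is also secreted as a cytokine precursor, had 59.0, 62.8, 58.0 and 52.9 CPM with CsA, against 51.4, 51.7, 55.0 and 48.1 CPM with vehicle. The groups overlapped and its log2 fold change was 0.18 ± 0.08 (SE, adjusted p = 0.0427); that call was lost without CsA replicate 1, 2 or 3, without vehicle replicate 1, 2 or 4, and in 4 further settings. EEF1E1, the third scaffold, had 6.17, 4.89, 5.75 and 5.88 CPM with CsA, against 5.96, 6.07, 7.20 and 4.52 CPM with vehicle. With so few counts it did not pass, at -0.07 ± 0.20 (SE, adjusted p = 0.78), and no difference was detectable at this depth. AIMP1, AIMP2 and EEF1E1 each overlap another gene in the annotation (TBCK, EIF2AK1 and a readthrough gene).

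**Figure D3:**
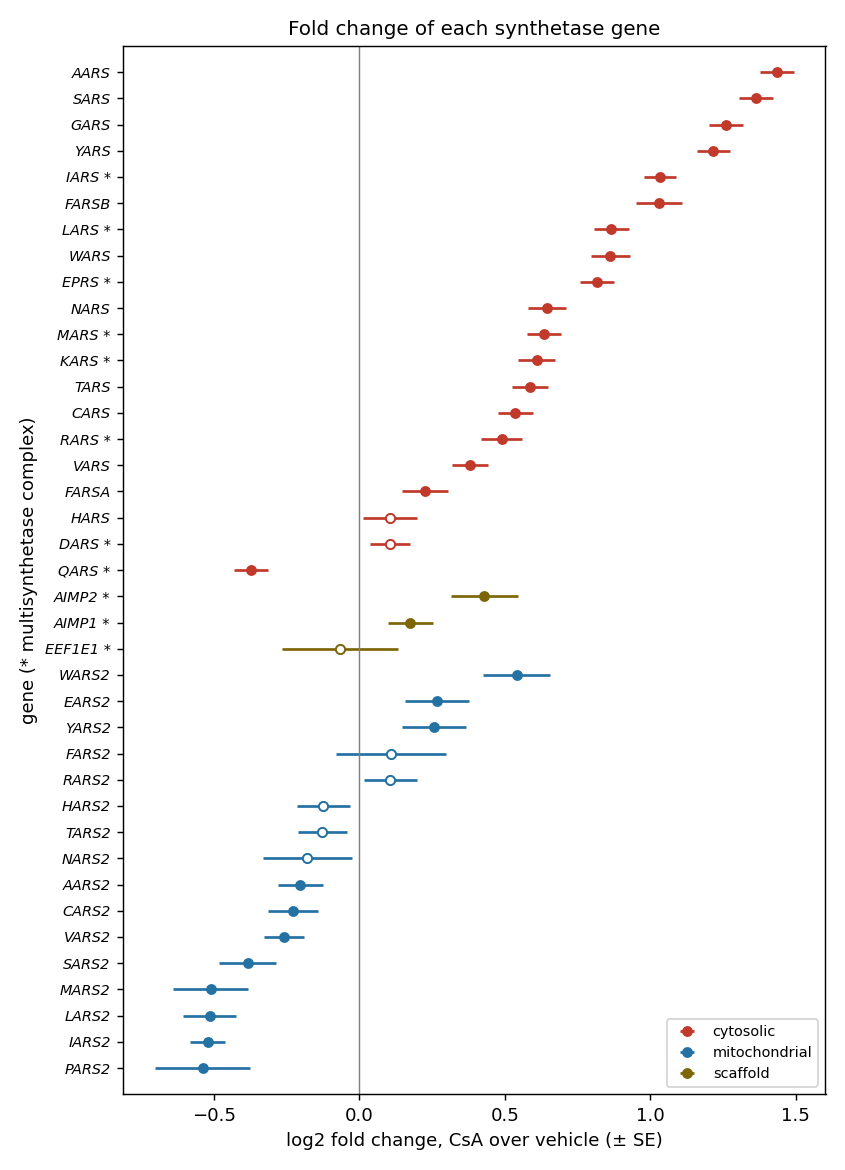
Log2 fold change (CsA over vehicle) of each gene with its standard error, by class, where filled marks passed at an adjusted p under 0.05, open marks did not, and an asterisk marks the multisynthetase complex. AARS stands highest at 1.44, QARS at -0.37 is the lowest cytosolic gene, and PARS2 at -0.54 is the lowest of all.

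Among the mitochondrial enzymes, falls outnumbered rises. IARS2, for isoleucine in mitochondria, had 188, 218, 231 and 217 CPM with CsA, against 300.4, 299, 309 and 316 CPM with vehicle. The CsA libraries were all lower and the log2 fold change was -0.52 ± 0.06 (SE, adjusted p = 4.57e-11); the microRNA genes MIR194-1 and MIR215 lie in it. LARS2, for leucine, had 28.8, 27.4, 28.8 and 29.7 CPM with CsA, against 41.3, 41.4, 44.2 and 36.4 CPM with vehicle. It too was lower in every CsA library, with a log2 fold change of -0.51 ± 0.09 (SE, adjusted p = 1.98e-06). PARS2, for proline, had 6.99, 7.57, 8.51 and 8.44 CPM with CsA, against 12.1, 9.39, 13.8 and 10.4 CPM with vehicle. It had few counts but no overlap, and its log2 fold change was -0.54 ± 0.16 (SE, adjusted p = 0.00308).

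The other mitochondrial genes that fell were MARS2 (-0.51, log2, for methionine), SARS2 (-0.38, for serine), VARS2 (-0.26, for valine), CARS2 (-0.23, for cysteine) and AARS2 (-0.20, for alanine). MARS2 libraries overlapped, since CsA replicate 2 stood at 19.1 CPM and vehicle replicate 4 at 18.7 CPM. The AARS2 call was lost without CsA replicate 1 or 2 or vehicle replicate 3, and the CARS2 call without CsA replicate 4 or vehicle replicate 2 or 3; both were lost in DESeq2. CARS2 overlaps ING1.

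WARS2, for tryptophan in mitochondria, had the largest rise of its class. It had 21.2, 25.4, 21.6 and 26.8 CPM with CsA, against 16.6, 14.5, 17.4 and 16.5 CPM with vehicle. Every CsA library was above and its log2 fold change was 0.54 ± 0.12 (SE, adjusted p = 4.88e-05). EARS2, for glutamate, had 34.6, 25.9, 29.9 and 25.1 CPM with CsA, against 28.5, 23.2, 20.1 and 23.5 CPM with vehicle. Its groups overlapped, with a log2 fold change of 0.27 ± 0.11 (SE, adjusted p = 0.0283), and the call was lost without CsA replicate 1 or without vehicle replicate 2, 3 or 4. YARS2, the mitochondrial gene with a core in its window, had 31.5, 25.9, 24.2 and 24.5 CPM with CsA, against 21.7, 23.7, 25.8 and 17.8 CPM with vehicle. These groups overlapped as well, at 0.26 ± 0.11 (SE, adjusted p = 0.0372), and the call was lost without CsA replicate 1 or without vehicle replicate 1 or 4. EARS2 overlaps GGA2. The count of mitochondrial genes that rose was thus 1 rather than 3 with total counts or upper quartile scaling, in DESeq2, and without CsA replicate 1 or vehicle replicate 4.

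The remaining mitochondrial genes, FARS2, RARS2, HARS2, TARS2 and NARS2, did not pass, with log2 fold changes from -0.18 to 0.11. FARS2 had the fewest counts of these and the widest error, 0.11 ± 0.19 (SE). HARS2 and TARS2 passed as lower with upper quartile scaling, at adjusted p of 0.0467 and 0.0271 in edgeR.

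Ratios of cytosolic to mitochondrial counts were formed for 17 gene pairs over 16 amino acids; the ratio itself depends on transcript length and only its change between groups is read. SARS over SARS2 had ratios of 11.6, 13.9, 11.97 and 15.6 with CsA, against 3.71, 3.66, 3.78 and 4.45 with vehicle, with no overlap. The medians were 12.9 with CsA and 3.75 with vehicle, and the geometric mean ratio of the CsA libraries was 3.38 times that of the vehicle libraries. This factor between geometric means was 3.12 for AARS over AARS2, with medians of 10.9 with CsA and 3.50 with vehicle, and 2.94 for IARS over IARS2, with medians of 3.68 with CsA and 1.26 with vehicle. For WARS over WARS2, where both genes rose, the medians were 7.09 with CsA and 5.80 with vehicle. The geometric means differed by a factor of 1.24. These groups all but touched, with a lowest CsA ratio of 6.305 (replicate 4) and a highest vehicle ratio of 6.301 (replicate 4). In 15 of 17 pairs every CsA ratio was above every vehicle ratio, WARS over WARS2 only by the narrow gap just given. HARS with HARS2 and FARSA with FARS2 were the exceptions. In 17 of 17 pairs the cytosolic log2 fold change was the higher, which includes HARS with HARS2, where neither gene passed. No such share was computed for other gene pairs. FARSA and FARSB share FARS2, and EARS2 and PARS2 share EPRS, so the pairs are not independent, and no test was made over them.

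**Figure D4:**
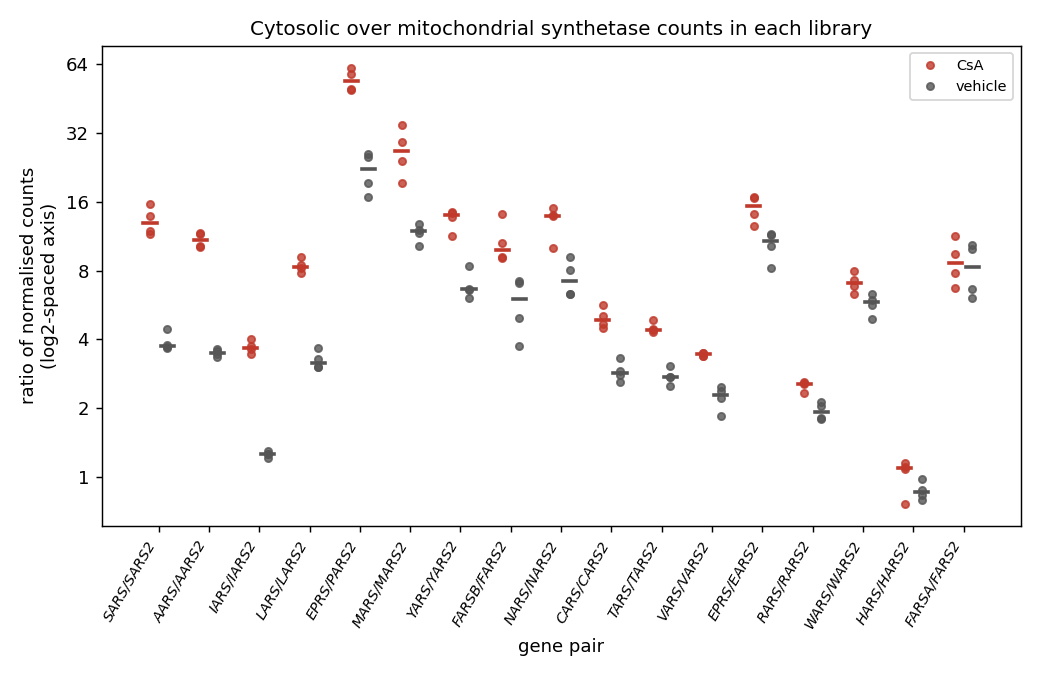
Ratio of cytosolic to mitochondrial normalised counts for the 17 pairs, on a log axis, with 1 point per library, a bar at the median and CsA left of vehicle. The CsA points lie above the vehicle points in 15 pairs, with almost no gap for WARS over WARS2. For SARS over SARS2 the medians are 12.9 with CsA and 3.75 with vehicle.

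Of 24 genes of the amino acid response outside the synthetases 22 rose (91.7%), 1 fell and 1 did not pass, against 33.3% of all genes that rose, with a median log2 fold change of 0.92. ATF4 itself averaged 344 ± 16.7 CPM with CsA and 223 ± 10.1 CPM with vehicle (SD, n = 4 each), a log2 fold change of 0.63 ± 0.06 (SE). DDIT3, the stress-induced factor CHOP, averaged 217 ± 20.6 CPM with CsA and 50.04 ± 3.02 CPM with vehicle (SD, n = 4 each). SLC3A2, the heavy chain of amino acid exchangers, changed by 1.60 ± 0.07 and ASNS, asparagine synthetase, by 1.44 ± 0.06 (log2, SE). Within the cytosolic class, the 7 genes with the TGATGNAA core had log2 fold changes of 0.54 to 1.44 with a median of 0.65, and the 9 with a window and no core had -0.37 to 1.37 with a median of 0.61. SARS and FARSB were among the genes with no core in the window. Other letters searched in the same windows were CCGGAAGT, an ETS-type site, in 8 of 33 genes against 4.95% of all genes, CACGTG, the E-box, in 5 of 33 against 8.78%, and CGCATGCG, an NRF1-type core, in 1 of 33 against 2.46%.

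All 10 tested genes of cytosolic elongation and termination rose, against 33.3% of all genes, with a median of 0.47. They include EEF2K, at 0.39 ± 0.07 (log2, SE), which is a kinase of EEF2 and not a factor itself. EEF1A1, which delivers charged transfer RNA to the ribosome, averaged 440.3 ± 25.2 CPM with CsA and 236 ± 19.9 CPM with vehicle (SD, n = 4 each). XPOT, the export receptor of transfer RNA, averaged 204 ± 2.10 CPM with CsA and 94.6 ± 5.49 CPM with vehicle (SD, n = 4 each), while of the 23 processing and export genes tested 8 rose (34.8%), 5 fell and 10 did not pass, close to the background share. Of 22 RNA polymerase III genes 10 rose (45.5%) and 3 fell, with POLR3D at a log2 fold change of 1.31 ± 0.09 (SE), and of 33 transfer RNA modification genes 18 rose (54.5%) and 3 fell, with CTU1, of uridine thiolation, at 1.33 ± 0.12. Of 11 proofreading and selenocysteine genes 4 rose (36.4%) and 2 fell, close to the background share of rises. DTD1, which removes D-amino acids from transfer RNA, changed by 0.71 ± 0.08, EEFSEC, the elongation factor for selenocysteine, by 0.45 ± 0.12, and PSTK, the kinase that makes the selenocysteine intermediate, by -0.79 ± 0.22 (log2, SE).

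Of 5 further genes of charging in mitochondria, 0 rose, 2 fell and 3 did not pass, with a median of -0.16. Over the alternatives 0 to 2 of the 5 genes fell, 0 in DESeq2. Of 11 mitochondrial translation factors 4 rose (36.4%) and 2 fell, close to the background share of rises, with a median of 0.02, ICT1 at 0.54 ± 0.13 and GFM2 at -0.39 ± 0.09 (log2, SE). The count that rose was 1 with total counts or upper quartile scaling and in DESeq2.

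WARS is also an interferon gamma-induced gene. It had 168, 174, 158 and 169 CPM with CsA, against 81.9, 86.5, 98.2 and 104 CPM with vehicle, and its log2 fold change was 0.86 ± 0.07 (SE, adjusted p = 3.83e-17). Of 10 other interferon gamma genes 6 were tested, and 4 of these fell (66.7%) and 1 rose (16.7%), against 33.5% and 33.3% of all genes. Whether so short a list differs from the background was not tested. GBP2, an interferon-induced GTPase, averaged 1.496 ± 0.559 CPM with CsA and 11.4 ± 1.07 CPM with vehicle (SD, n = 4 each), and IRF1, a transcription factor of that response, averaged 49.3 ± 4.65 CPM with CsA and 30.9 ± 2.22 CPM with vehicle (SD, n = 4 each). WARS and IRF1 were thus higher with CsA, and GBP2 lower, in the same libraries.

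The Argonaute lists were read for the same 39 genes, as 1 list per treatment with its libraries pooled and so with no replicate. On members there were 39 clusters over 18 genes in the CsA list of 36812 clusters, 49 over 21 genes in the vehicle list of 56985, and 12 over 10 genes in the list for all Argonaute proteins of 19306. In each list, 0 of these clusters were annotated to a 3′ untranslated region, and 33, 39 and 10 were in introns. Over the clusters of all genes, 80.1%, 79.8% and 81.2% were in introns and 2.70%, 2.47% and 1.92% in 3′ untranslated regions, in the order CsA, vehicle, all Argonaute. FARS2 had 5 clusters with CsA and 12 with vehicle, and LARS2 7 with CsA and 8 with vehicle. Clusters on members present in both AGO2 lists numbered 13, which is 33.3% of those in the CsA list and 26.5% of those in the vehicle list. The same share over all clusters of the lists was not computed.

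The 3 clusters annotated to exons of members and known to lie on the strand of the gene are shown, with hg19 positions. A pair of VARS exon clusters in the CsA list had no strand to compare with, and a HARS2 cluster in the vehicle list, on the strand of the gene, was annotated to the 5′ untranslated region; these are not shown. Those shown were KARS at chr16:75665410-75665426, minus strand, with an authors' score of 96 in the CsA list, SARS at chr1:109756693-109756719, plus strand, with 30 in the vehicle list, and GARS at chr7:30656855-30656875, plus strand, with 66 in the vehicle list. The score ranks clusters within a list and its unit is not given.
KARS: ccaagcctacgatgttg
SARS: ttcaaggacccgggactagtggaccag
GARS: tgcctgtgactgttgggatgc
All 3 genes rose in mRNA with CsA at 48 h, as did 17 of 20 cytosolic genes and 33.3% of all genes. None of these exon clusters, from libraries made after 24 h, was in both AGO2 lists. Most member clusters were not shared either, since 33.3% of those in the CsA list and 26.5% in the vehicle list were in both. Without that share over all clusters, this cannot be read as a trait of these genes. A relation between clusters and mRNA was not tested.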

How the data were processed

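The authors deposited whole-number counts per gene symbol for 8 mRNA libraries (23368 features, 28 of them named by a calendar date and never named here). Per the submitters' processing notes, the build was hg19 and the tools were TopHat, Bowtie, HTSeq, DESeq2, cutadapt and CASAVA 1.8.2. What each did, and whether counting used the strand, is not stated. The authors also deposited log2 fold changes and p-values of their own comparison, used only to compare calls: of the 39 members, 26 passed at 0.05 in the authors' deposited table and all 26 were called here with the same sign, of 31 called here. The PAR-CLIP lists give position, annotation, sequence and the authors' score per cluster, per the file headers.

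The fit used R 4.3.3 and edgeR 4.0.16: filterByExpr, TMM and the quasi-likelihood test with group alone, with Benjamini-Hochberg adjustment over 12855 tested genes; alternatives used limma 3.58.1 and DESeq2 1.42.0. Fold changes are log2, CsA over vehicle, with the error implied by the F statistic. Total counts ranged from 3965431 to 7041604 per library, and replicates differed by more than sampling noise. Clusters were joined to members by annotated symbol. The 39 members and all gene lists were chosen with earlier results of these data known. The named genes are the 6 largest cytosolic changes, the 3 largest and 3 smallest mitochondrial ones, scaffolds, and any cytosolic or complex member that fell or did not pass; of each related list up to 3 called genes of smallest p, with XPOT and ATF4; a few items that this rule or the sequence search would name are not reported here. CPM is not corrected for length, so levels of different genes are not compared. miRNA libraries were not used.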

Additional observations from a re-analysis of the deposited data

Results flagged for a closer look

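Of 78 groups of 4 libraries (39 genes, CsA and vehicle), 5 held 1 library far from the other 3; chance alone flags about 1 in 20 groups. TARS had 202 CPM in CsA replicate 4, above 190.5 to 191.7 CPM in the other CsA libraries, a gap that left it above every vehicle library. NARS2 had 13.3 CPM in CsA replicate 4, above 9.77 to 10.4 CPM in the other CsA libraries, and did not pass the test in any case. CARS had 132 CPM in vehicle replicate 3, below 142.7 to 144.3 CPM in the other vehicle libraries. EPRS had 268 CPM in vehicle replicate 4, above 232.3 to 236.9 CPM in the other vehicle libraries. IARS had 409 CPM in vehicle replicate 4, above 376.2 to 378.7 CPM in the other vehicle libraries. The calls of TARS, CARS, EPRS and IARS were the same without any 1 library.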

How the results depend on the processing

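Each member was refitted under 16 alternatives, of which 8 left out 1 library each. Of 624 such values 585 kept their direction and side of the threshold, 34 lost the call, 3 gained it and 2 reversed, and 29 members kept direction and side of the threshold in all 16. The reversals were of EEF1E1, which did not pass at all, at a log2 fold change between -0.16 and 0.0264 when 1 library was left out, above 0 without CsA replicate 2 or vehicle replicate 3. The number of mitochondrial members higher with CsA was 1 with total counts only, 1 with upper quartile scaling and 1 in DESeq2, in place of 3, and 1 to 3 when 1 library was left out. Genes called in all were 7907 to 9110 over the alternatives, cytosolic members higher were 16 to 18 and mitochondrial members lower were 6 to 10. With total counts or upper quartile scaling the median of all genes moved by -0.05 or -0.08. With a filter at each list's median score, member clusters numbered 17 (CsA), 17 (vehicle) and 4 (all Argonaute), and with 3′ untranslated regions only 0, 0 and 0. Libraries of the same number did not deviate together (correlations of -0.15, 0.01, -0.09 and 0.09), and 1 of 4 CsA libraries correlated best with its own number. No pairing by number was seen, but this cannot show that such libraries had no common culture or day, which the labels do not state. With the replicate block, 8486 genes were called in place of 8597 and 21 members rose in place of 22, AIMP1 losing its call. Depth limits EEF1E1, FARS2, PARS2 and NARS2 most.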

Other observations

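Clusters on the strand opposite to a member gene made up 15 of 39 in the AGO2 CsA list, 21 of 49 in the AGO2 vehicle list and 8 of 12 in the list for all Argonaute proteins; 5, 2 and 2 had no strand that could be determined.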
